A study of Mus musculus with 30 samples.

Results

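The genes described here are 36 genes of mitosis and the spindle, read in the livers of mice of 3 genotypes given the triterpenoid CDDO-Me (bardoxolone methyl) or vehicle. They were chosen by symbol, as cyclins, kinases, kinetochore proteins, spindle proteins and cytokinesis proteins of dividing cells. All 36 symbols were found among the 55335 genes of the count table. The choice was made with earlier results of these data known, so shares of members called describe the list and do not test it. The mice were male albino C57BL/6J mice [B6(Cg)-Tyr c-2J/J] of 7 to 10 weeks that received 1 oral dose of vehicle (DMSO and Cremophor-EL in PBS) or of CDDO-Me at 30 µmol/kg, and livers were taken 24 hours later. Wild-type mice were compared with mice homozygous for Keap1 C151S, a knock-in allele made by genome editing in which a cysteine of the NRF2 repressor KEAP1 is a serine, and with mice in which Nrf2 (Nfe2l2) was knocked out, both being alleles of the whole animal. Each of the 6 groups held 5 mice with 1 liver mRNA library per mouse, so that all differences are between separate animals.

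CDDO-Me is an electrophile that binds KEAP1 and thereby lets the transcription factor NRF2 accumulate. A cell enters mitosis when Cdk1 is activated by A- and B-type cyclins, builds a bipolar spindle from microtubules and motors, attaches chromosomes to it through kinetochores, and is released into anaphase by the anaphase-promoting complex (APC/C) with its activator Cdc20. Most of these genes are transcribed only in late S phase, G2 and M and are repressed in resting cells, through the MuvB complexes and NF-Y bound at a cell cycle homology region (CHR) and at CCAAT boxes near the transcription start. Hepatocytes of adult liver divide rarely, so such transcripts are scarce in this tissue and come from the few cells that cycle, hepatocytes or other cells.

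The promoter sequences of several members are shown because the 2 kinds of element named above are visible in them. The first window listed for each gene in RefSeq (GRCm38.p6) was taken. These windows run from 250 bases before to 50 bases after the transcription start, 5′ to 3′ on the gene's strand. They were found for 31 of the 36 members, all but Aurkb, Pbk, Tpx2, Ccna2 and Kif20a. Capitals mark every match to TTTGAA or TTCGAA, the CHR letters, and to CCAAT, each read on both strands, so that TTCAAA and ATTGG are the same motifs read from the other strand. Cdc20, Ccnb2, Prc1, Plk1 and Cdk1 hold both motifs, and Knstrn, shown beside them, holds neither. The windows lie at chr4:118437294-118437593 (Cdc20, minus strand), chr9:70421505-70421804 (Ccnb2, minus strand), chr7:80294201-80294500 (Prc1, plus strand), chr7:122159185-122159484 (Plk1, plus strand), chr10:69352863-69353162 (Cdk1, minus strand) and chr2:118813753-118814052 (Knstrn, plus strand).
Cdc20: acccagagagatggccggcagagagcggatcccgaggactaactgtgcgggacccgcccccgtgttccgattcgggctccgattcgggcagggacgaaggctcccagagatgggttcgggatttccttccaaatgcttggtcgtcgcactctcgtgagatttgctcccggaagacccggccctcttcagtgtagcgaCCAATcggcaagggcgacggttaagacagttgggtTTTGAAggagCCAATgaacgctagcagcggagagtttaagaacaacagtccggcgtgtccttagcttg
Ccnb2: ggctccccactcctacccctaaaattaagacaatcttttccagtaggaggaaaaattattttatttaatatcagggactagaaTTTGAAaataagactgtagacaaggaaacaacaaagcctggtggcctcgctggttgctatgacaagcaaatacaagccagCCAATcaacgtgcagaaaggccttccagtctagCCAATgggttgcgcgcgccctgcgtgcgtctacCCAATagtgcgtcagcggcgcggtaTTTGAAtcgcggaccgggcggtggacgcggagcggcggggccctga
Prc1: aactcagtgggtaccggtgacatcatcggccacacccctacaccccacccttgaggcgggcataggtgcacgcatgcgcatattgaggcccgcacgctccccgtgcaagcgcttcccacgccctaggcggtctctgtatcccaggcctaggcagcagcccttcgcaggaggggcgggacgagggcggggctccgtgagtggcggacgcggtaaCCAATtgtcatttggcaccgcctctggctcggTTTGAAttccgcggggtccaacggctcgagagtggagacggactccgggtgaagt
Plk1: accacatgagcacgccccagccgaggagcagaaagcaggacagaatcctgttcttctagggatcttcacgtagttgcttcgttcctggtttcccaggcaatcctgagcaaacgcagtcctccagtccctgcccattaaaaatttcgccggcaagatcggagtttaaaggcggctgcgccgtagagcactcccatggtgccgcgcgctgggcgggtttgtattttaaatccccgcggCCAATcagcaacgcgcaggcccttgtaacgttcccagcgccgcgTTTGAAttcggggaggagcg
Cdk1: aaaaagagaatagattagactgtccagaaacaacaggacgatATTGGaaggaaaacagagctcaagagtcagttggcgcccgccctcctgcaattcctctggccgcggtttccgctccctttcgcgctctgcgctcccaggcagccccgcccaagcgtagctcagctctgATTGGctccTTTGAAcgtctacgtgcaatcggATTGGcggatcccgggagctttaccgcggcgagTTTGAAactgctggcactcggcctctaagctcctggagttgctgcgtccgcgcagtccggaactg
Knstrn: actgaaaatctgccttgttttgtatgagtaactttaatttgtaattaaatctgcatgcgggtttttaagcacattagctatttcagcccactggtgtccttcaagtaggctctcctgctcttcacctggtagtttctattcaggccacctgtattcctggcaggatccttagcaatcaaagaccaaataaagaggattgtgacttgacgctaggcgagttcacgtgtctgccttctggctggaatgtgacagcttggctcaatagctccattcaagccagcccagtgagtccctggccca

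A CHR match was present in 24 of the 31 windows, compared with 19.4% of the 27025 windows of the same length in the RefSeq table. At least 1 CCAAT was present in 24 of 31 windows, compared with 37.9% of all windows, and at least 2 in 17 of 31, compared with 12.2%. Both motifs stood together in 22 of 31 windows, compared with 7.7% of all. The CHR matches had a median position 3 bases after the start and the CCAAT matches a median position 67 bases before it. In Cdc20 the CHR match began 18 bases before the start, with CCAAT matches at 53 and 8 bases before it. In Ccnb2, 3 CCAAT matches stood 87, 54 and 21 bases before the start, with CHR matches 167 bases before and 5 bases after it. Birc5, Knstrn, Melk, Nuf2 and Nusap1 held neither motif in these windows, which says only that these letters are not there. A match is a description of the sequence and no measurement of binding.

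**Figure D1:**
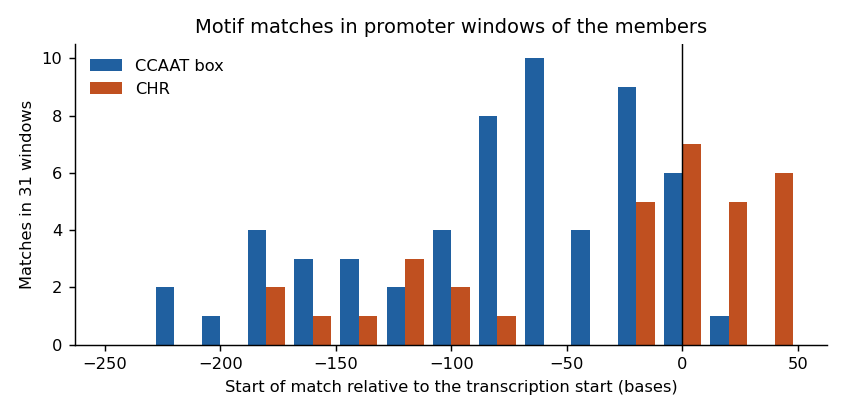
Number of motif matches (vertical axis) by the position of the first base of the match relative to the transcription start (horizontal axis, bases, bins of 20) in the promoter windows of 31 members. CHR matches (33 in 24 members) gathered around the start, with 23 of them within 50 bases of it, and CCAAT matches (57 in 24 members) lay mostly before it, 45 of them within the 150 bases upstream.

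Each library held 23667068 to 42073169 counts, and the 36 members together received 290 to 4989 of them. The livers held the labelled tissue's main marker at a high level, with the albumin gene Alb between 48396 and 122617 CPM, the counts relative to the scaled library size, in every mouse. Nqo1, the usual reporter of NRF2 activity, passed the test in wild-type mice (log2 fold change 3.16 ± 0.28 SE, adjusted p = 3.87e-05), and was 0.07 ± 0.12 in C151S and 0.37 ± 0.23 in Nrf2-knockout mice. Reads of the deleted gene, Nfe2l2, were at 35.1 ± 4.54 CPM (SD, n = 5) in vehicle-treated knockout mice and 66.1 ± 4.15 in wild-type mice, and since counts per gene do not show which exons were read, this gene does not check the knockout label, nor can counts show the Keap1 substitution. Among the 20 C151S and Nrf2-knockout libraries, 11 had Arntl, a core gene of the circadian clock, at -1.15 to 0.90 log2 CPM, while the other 9 and the 10 wild-type libraries had it at 2.52 to 4.79. The low libraries were 2 vehicle-treated and 3 CDDO-Me-treated C151S mice and 3 of each treatment among the Nrf2-knockout mice.

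The summed level of the 36 members was lower after CDDO-Me in the mean of each genotype. It was 35.6 ± 10.8 CPM (SD, n = 5) in vehicle-treated wild-type mice and 14.4 ± 2.23 after CDDO-Me, 57.2 ± 14.4 with vehicle and 18.6 ± 3.70 after CDDO-Me for C151S, and 63.9 ± 38.1 against 31.7 ± 16.7 for Nrf2-knockout mice. The treated mean was thus 40.5%, 32.6% and 49.6% of the vehicle mean. Every treated wild-type mouse (11.3 to 17.4 CPM) was below every vehicle-treated one (18.3 to 47.4), and every treated C151S mouse (13.1 to 22.96) was below every vehicle-treated one (37.4 to 73.6). The Nrf2-knockout groups overlapped, from 18.0 to 60.2 CPM after CDDO-Me and from 28.2 to 120.1 CPM with vehicle. In whole liver, fewer cycling cells and less of these transcripts per cell cannot be told apart.

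**Figure D2:**
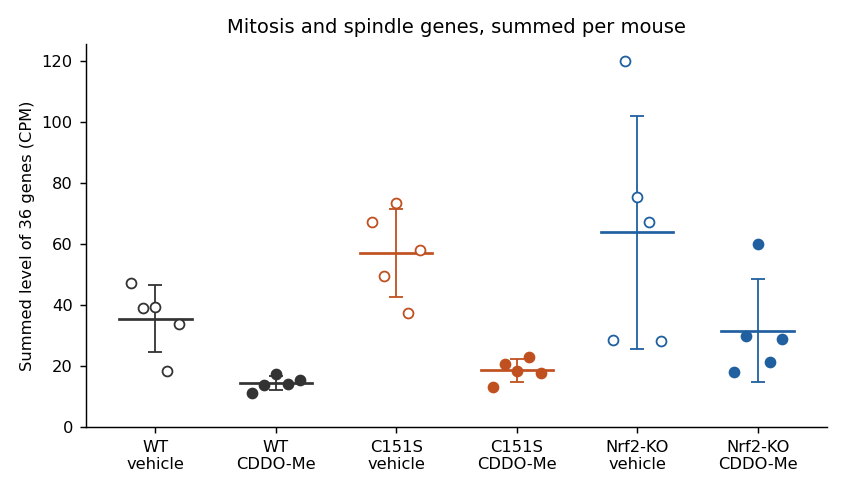
Summed level of the 36 genes (vertical axis, CPM scaled by the trimmed mean of M values) in each of the 30 mice, by genotype and treatment. Open points are vehicle-treated and filled points CDDO-Me-treated mice, and lines with bars are means ± SD of 5. The treated wild-type and C151S mice lie below their vehicle groups without overlap, and the Nrf2-knockout groups overlap.

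Single mice carried much of the spread. Vehicle-treated Nrf2-knockout mouse 2 had the highest level of its group in 34 of the 36 members, and CDDO-Me-treated Nrf2-knockout mouse 3 in 29. At the other end, vehicle-treated wild-type mouse 4 had the lowest level of its group in 30 members, vehicle-treated C151S mouse 4 in 26, CDDO-Me-treated Nrf2-knockout mouse 1 in 26 and CDDO-Me-treated C151S mouse 1 in 22. Without Nrf2-knockout mouse 2 of the vehicle group and mouse 3 of the treated group, the treated mean of the summed level was 49.3% of the vehicle mean in that genotype. Without wild-type vehicle mouse 4 the wild-type share was 36.1%, and without C151S vehicle mouse 4 the C151S share was 30.0%. Leaving out the lowest vehicle mouse can only lower such a share.

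The treatment was first compared over the mean of the 3 genotypes, in 1 fit of all 30 libraries in which all 36 members could be tested (edgeR's quasi-likelihood test with Benjamini-Hochberg adjustment over all genes, here and below). In this comparison 35 of the 36 members were lower after CDDO-Me at an adjusted p under 0.05 and none was higher, whereas 2.76% of the 15010 genes tested were lower. The median log2 fold change was -1.43 over the members and -0.003 over all genes, with a range from -2.94 ± 0.38 SE for Ccnb1 to -0.71 ± 0.21 for Birc5. Ect2, a guanine nucleotide exchange factor that activates RhoA at the cleavage furrow, was the member that did not pass (-0.73 ± 0.24, adjusted p = 0.0599). Leaving out any 1 of the 30 mice left 32 to 36 members past the test. In 2 comparisons added after the data were seen, 30 of 36 passed over the mean of the C151S and Nrf2-knockout responses alone, where 1.59% of all genes were lower, and 35 of 36 passed without the highest mouse of each Nrf2-knockout group, where 2.55% were.

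Within genotypes, with 10 libraries in each test, fewer members passed. In wild-type mice 10 members were lower at an adjusted p under 0.05 and a log2 fold change of at least 0.5 in size, of 21 that passed the filter on low counts, with 1.1% of all 13697 genes tested called lower. With no filter, so that all 36 members entered, 18 were called lower and 0 higher, with 0.744% of 27551 genes called lower. In C151S mice 11 members were called lower of 34 that passed the filter, with 0.0779% of all 14128 genes tested called lower. These 11 were all of the genes called lower in that comparison, but the list was chosen with earlier results of these data known. Their share is therefore a description and no test of the list. With no filter 14 of the 36 were called lower, with 0.0671% of 28303 genes. In Nrf2-knockout mice 0 of 34 members and 0 of all 14474 genes tested (0%) were called by edgeR, and 14 members had an unadjusted p under 0.05, each of them lower, compared with 4.03% of all genes. DESeq2 called 22, 27 and 3 members lower in wild-type, C151S and knockout mice, with 1.58%, 0.532% and 0.188% of all genes called lower.

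The wild-type count rested on 10 libraries of which single ones moved it. Without vehicle mouse 3 it was 8 members, the lowest, and without vehicle mouse 4 it was 22, the highest. Without CDDO-Me mouse 3 or 5 it was 17. In C151S mice the count was 0 when any 1 of vehicle mice 1, 2, 3 or 5 or of CDDO-Me mice 3, 4 or 5 was left out, 6 and 7 without CDDO-Me mice 2 and 1, and 17 without vehicle mouse 4. In C151S mice, 35 of 36 members had a lower mean after CDDO-Me within the mice of low Arntl (3 treated, 2 with vehicle). Within those of high Arntl (2 treated, 3 with vehicle) all 36 did. In Nrf2-knockout mice these were 36 (3 and 3 mice) and 31 (2 and 2 mice). The members tend to be high or low together in a mouse, so with so few mice these counts are only a description. The share over all genes was not counted. With the Arntl group as a covariate, 2 members were called in C151S mice, where 0.0212% of all genes were called lower, and 35 over the mean of the genotypes, where 3.86% were.

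Separation of the groups mouse by mouse does not depend on the variance model. All 5 treated mice were below all 5 vehicle-treated mice for 15 of the 36 members in wild-type, 26 in C151S and 1 in Nrf2-knockout mice, compared with 2.09%, 1.35% and 0.673% of the 15010 genes. Without vehicle mouse 4 these counts were 26 in wild-type and 32 in C151S mice, compared with 2.89% and 2.55% of the genes in the same comparisons of 5 against 4. Without the highest mouse of each Nrf2-knockout group, 5 members separated in that genotype, compared with 1.17% of the genes. These mice were picked by their levels of the members, and leaving out a mouse can only keep or raise such a count. The mice were not picked by the levels of the other genes, so members and all genes are not compared alike here.

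**Figure D3:**
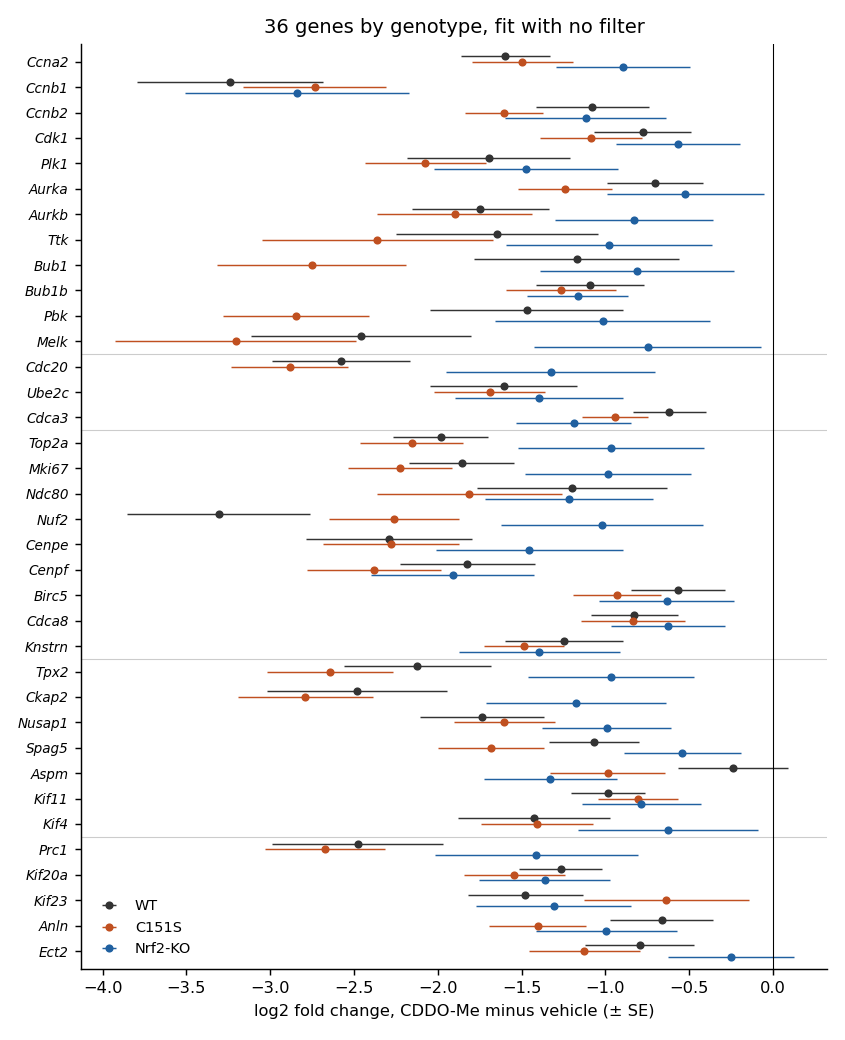
Log2 fold change of CDDO-Me against vehicle (horizontal axis, ± SE) of each of the 36 members (rows, grouped by role) in wild-type, C151S and knockout mice, from the fit with no filter on low counts, 5 mice per group. All points lie below 0, with medians of -1.47, -1.69 and -1.01.

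Cyclins and kinases made up 12 of the members and all 12 were lower over the mean of the genotypes, with a median log2 fold change of -1.54. Gene identifiers are those of the count table (GENCODE M23). Positions, which span the whole gene, and transcript lengths are those of an earlier GENCODE release on mm10. Ccnb1 (ENSMUSG00000041431.16, chr13:100778650-100786570) encodes cyclin B1, whose binding to Cdk1 drives entry into mitosis. Its counts in wild-type mice were 9, 23, 22, 5 and 21 with vehicle and 0, 2, 1, 2 and 3 after CDDO-Me. In C151S mice they were 41, 26, 37, 16 and 35 with vehicle and 1, 5, 9, 3 and 5 after CDDO-Me, and in Nrf2-knockout mice 9, 111, 45, 44 and 9 with vehicle and 1, 15, 4, 2 and 7 after CDDO-Me. All 5 treated wild-type mice were at or under 3 counts, taken here as the floor of detection, and below every vehicle-treated wild-type mouse, and the treated C151S mice were below all of theirs. The Nrf2-knockout groups overlapped, with vehicle mice 1 and 5 at 9 counts and treated mouse 2 at 15. Over the mean of the genotypes Ccnb1 changed by -2.94 ± 0.38 on the log2 scale (adjusted p = 3.86e-05), and in C151S mice by -2.74 ± 0.42 (adjusted p = 0.04). It was too low for the filtered wild-type test and gave -3.24 ± 0.56 there with no filter (adjusted p = 0.00123).

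Ccnb2 (ENSMUSG00000032218.7, chr9:70407692-70421547), the other B-type cyclin of dividing somatic cells, had counts of 30, 37, 37, 16 and 15 with vehicle and 8, 12, 14, 22 and 9 after CDDO-Me in wild-type mice. The C151S mice had 67, 58, 67, 56 and 81 with vehicle and 19, 18, 17, 29 and 26 after CDDO-Me, and the Nrf2-knockout mice 22, 165, 72, 37 and 26 with vehicle and 9, 45, 34, 15 and 38 after CDDO-Me. The C151S groups were far apart, with 56 or more counts in each vehicle-treated mouse and 29 or fewer after CDDO-Me, and the groups of the other genotypes overlapped. Ccnb2 changed by -1.61 ± 0.20 in C151S mice (adjusted p = 0.0323), and was -1.09 ± 0.34 in wild-type mice (adjusted p = 0.101).

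Ccna2 (ENSMUSG00000027715.9, chr3:36564865-36572150) encodes cyclin A2, which acts with Cdk2 in S phase and with Cdk1 in G2. Counts of Ccna2 were 25, 38, 43, 25 and 35 with vehicle and 9, 10, 9, 12 and 15 after CDDO-Me in wild-type mice. They were 70, 69, 93, 40 and 48 with vehicle and 10, 22, 27, 20 and 36 after CDDO-Me in C151S mice. For Nrf2-knockout mice the levels in CPM were 1.18, 3.63, 2.56, 1.75 and 1.01 with vehicle and 0.558, 0.846, 2.25, 0.869 and 0.885 after CDDO-Me. Both wild-type and C151S groups separated without overlap. Among these 3 cyclins it was Ccna2 that passed in wild-type mice after the filter (-1.60 ± 0.21, adjusted p = 0.000935), while the C151S value was -1.50 ± 0.30 (adjusted p = 0.152).

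Cdk1 (ENSMUSG00000019942.13, chr10:69335146-69352938), the kinase these cyclins bind, was among the more abundant members, with counts of 61, 75, 48, 24 and 57 with vehicle and 27, 38, 23, 29 and 44 after CDDO-Me in wild-type mice. It was at 101, 96, 137, 103 and 156 with vehicle and 14, 57, 60, 94 and 60 after CDDO-Me in C151S mice and at 58, 240, 176, 92 and 76 with vehicle and 50, 85, 197, 45 and 52 after CDDO-Me in Nrf2-knockout mice. Each treated C151S mouse was below each vehicle-treated one, and the other groups overlapped. Its change over the mean of the genotypes was among the smaller ones (-0.82 ± 0.22, adjusted p = 0.0264), and it passed the test in no single genotype, with log2 fold changes of -0.79, -1.09 and -0.59 in wild-type, C151S and knockout mice.

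Plk1 (ENSMUSG00000030867.7, chr7:122159439-122169873) encodes Polo-like kinase 1, which matures centrosomes and helps activate Cdk1. Plk1 counts were 25, 28, 21, 3 and 15 with vehicle and 4, 3, 8, 5 and 9 after CDDO-Me in wild-type mice. C151S mice had 29, 33, 49, 14 and 36 with vehicle and 3, 11, 7, 10 and 7 after CDDO-Me and Nrf2-knockout mice 11, 106, 44, 35 and 15 with vehicle and 3, 28, 23, 7 and 13 after CDDO-Me. Vehicle-treated wild-type mouse 4, at 3 counts, was as low as the treated mice, and the other 4 had 15 or more. Plk1 changed by -1.75 ± 0.31 over the mean of the genotypes (adjusted p = 0.00129), and the C151S value of -2.08 ± 0.34 did not pass (adjusted p = 0.0518).

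Pbk (ENSMUSG00000022033.9, chr14:65805837-65817822), a kinase of mitotic cells also known as TOPK, had counts of 6, 16, 12, 2 and 4 with vehicle and 2, 3, 5, 1 and 3 after CDDO-Me in wild-type mice. The other genotypes had 25, 13, 39, 16 and 26 with vehicle and 2, 5, 4, 4 and 1 after CDDO-Me (C151S) and 5, 49, 40, 24 and 13 with vehicle and 4, 9, 45, 4 and 3 after CDDO-Me (Nrf2-knockout). The wild-type groups overlapped, with 5 or fewer counts in each treated mouse. In C151S mice 13 or more counts with vehicle stood against 5 or fewer after CDDO-Me, a change of -2.85 ± 0.40 (adjusted p = 0.0399). One treated Nrf2-knockout mouse, mouse 3, had 45 counts while the other 4 had 9 or fewer.

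The other kinases of this group guard or time chromosome segregation: Aurka at spindle poles, Aurkb in the chromosomal passenger complex, Ttk, Bub1 and Bub1b in the spindle checkpoint, and Melk, a kinase abundant in proliferating cells. Their log2 fold changes over the mean of the genotypes ran from -2.14 ± 0.45 (Melk) to -0.83 ± 0.23 (Aurka), with adjusted p values from 0.000357 (Bub1b) to 0.0275 (Aurka). Bub1b, the BubR1 kinase, was at -1.10 ± 0.32, -1.27 ± 0.33 and -1.19 ± 0.29 in wild-type, C151S and knockout mice, none of them past the adjusted threshold, and was the 1 member whose Nrf2-knockout groups did not overlap. Melk had 7 counts or fewer in every wild-type mouse and 17 or fewer in every C151S mouse.

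Cdc20, Ube2c and Cdca3 belong to the machinery of the APC/C: its activator at the metaphase to anaphase transition, its ubiquitin-conjugating enzyme, and a substrate degraded after mitosis. All 3 were lower over the mean of the genotypes. Cdc20 is ENSMUSG00000006398.15, chr4:118432901-118437352, and its counts were 29, 48, 48, 12 and 31 with vehicle and 5, 1, 6, 7 and 9 after CDDO-Me in wild-type mice. They were 67, 70, 114, 31 and 98 with vehicle and 5, 11, 7, 18 and 10 after CDDO-Me in C151S mice and 22, 265, 149, 79 and 16 with vehicle and 33, 50, 103, 6 and 16 after CDDO-Me in Nrf2-knockout mice. The treated mice of the first 2 genotypes were all below their vehicle groups, and the vehicle-treated Nrf2-knockout mice ranged from 16 to 265 counts. Cdc20 had the largest fall of the tested members in wild-type mice (-2.59 ± 0.44, adjusted p = 0.00552) and in C151S mice (-2.89 ± 0.35, adjusted p = 0.0323), and was -1.35 ± 0.72 in Nrf2-knockout mice (adjusted p = 0.684). In CPM it went from 1.13 ± 0.467 to 0.184 ± 0.0904 in wild-type and from 2.17 ± 0.735 to 0.290 ± 0.130 in C151S mice (mean ± SD, n = 5). Over the mean of the genotypes Ube2c changed by -1.57 ± 0.28 (adjusted p = 0.00109) and Cdca3 by -0.92 ± 0.16 (adjusted p = 0.00129). Per kilobase of transcript, Cdca3, Ccnb2 and Cdc20 had the 3 highest levels of the 36 members when averaged over the 6 groups, at 0.837, 0.685 and 0.668 CPM per kilobase. Their order differed between groups, and in vehicle-treated C151S mice Ccnb2 (1.26) and Cdc20 (1.16) stood above Cdca3 (1.03).

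Of the subunits of the APC/C itself, 15 genes taken from a separate list, 0 were called in either direction by edgeR over the mean of the genotypes, and 2 had an unadjusted p under 0.05 (23.3% of all genes). DESeq2 also called 0. Their median log2 fold change was 0.035. None was called within a genotype, with 1 at an unadjusted p under 0.05 in wild-type mice, 1 in C151S mice and 0 in Nrf2-knockout mice (17%, 13.7% and 7.85% of all genes). The subunits named by lowest p were Anapc5 in wild-type mice (0.20 ± 0.06, adjusted p = 0.0998) and Anapc11 in C151S mice (0.36 ± 0.12, adjusted p = 0.347).

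Genes of chromosome structure and kinetochores numbered 9, and all 9 were lower over the mean of the genotypes, with a median log2 fold change of -1.695. Top2a (ENSMUSG00000020914.17, chr11:98992943-99024189) encodes the topoisomerase that untangles sister chromatids. Top2a counts in wild-type mice were 65, 78, 120, 33 and 68 with vehicle and 9, 19, 25, 19 and 20 after CDDO-Me. In C151S mice they were 124, 115, 234, 67 and 152 with vehicle and 11, 49, 32, 32 and 32 after CDDO-Me, and in Nrf2-knockout mice 45, 330, 290, 184 and 42 with vehicle and 32, 41, 254, 37 and 82 after CDDO-Me. Wild-type mice gave 33 or more with vehicle and 25 or fewer after CDDO-Me, and C151S mice 67 or more and 49 or fewer. Top2a changed by -1.99 ± 0.31 in wild-type mice (adjusted p = 0.00277) and by -2.16 ± 0.33 in C151S mice (adjusted p = 0.04). In Nrf2-knockout mice it was -0.99 ± 0.65 (adjusted p = 0.725), where treated mouse 3 had 254 counts and the other 4 had 82 or fewer.

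Mki67 (ENSMUSG00000031004.8, chr7:135689784-135716361) encodes Ki-67, the standard marker of cycling cells, which coats mitotic chromosomes. Its counts were 126, 69, 148, 40 and 68 with vehicle and 10, 28, 28, 30 and 32 after CDDO-Me in wild-type mice. C151S mice gave 199, 146, 307, 107 and 185 with vehicle and 13, 71, 32, 51 and 39 after CDDO-Me, and Nrf2-knockout mice 66, 455, 301, 242 and 63 with vehicle and 32, 98, 271, 55 and 105 after CDDO-Me. As for Top2a, the wild-type and C151S groups separated and the Nrf2-knockout groups overlapped. Mki67 changed by -1.87 ± 0.37 in wild-type mice (adjusted p = 0.0125) and by -2.23 ± 0.34 in C151S mice (adjusted p = 0.04).

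Nuf2 and Ndc80 form the complex by which kinetochores hold microtubules. Nuf2 is ENSMUSG00000026683.14, chr1:169497934-169531464, and its counts were 20, 18, 24, 12 and 9 with vehicle and 1, 1, 1, 5 and 0 after CDDO-Me in wild-type mice. They were 27, 19, 41, 13 and 32 with vehicle and 5, 6, 2, 8 and 6 after CDDO-Me in C151S mice and 7, 71, 51, 23 and 12 with vehicle and 4, 5, 43, 8 and 17 after CDDO-Me in Nrf2-knockout mice. In treated wild-type mice 4 of 5 had 1 count or none, compared with 9 or more in each vehicle-treated mouse. Nuf2 changed by -2.27 ± 0.35 in C151S mice (adjusted p = 0.0467) and, with no filter, by -3.31 ± 0.55 in wild-type mice (adjusted p = 0.000826). Ndc80, with 36 counts or fewer in every mouse, changed by -1.41 ± 0.33 over the mean of the genotypes (adjusted p = 0.0101).

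Knstrn (ENSMUSG00000027331.15, chr2:118814003-118853957) encodes kinastrin, a partner of the Spag5 protein astrin at kinetochores and spindle poles. It had counts of 25, 39, 45, 15 and 19 with vehicle and 7, 6, 20, 12 and 15 after CDDO-Me in wild-type mice. The C151S mice had 63, 52, 69, 56 and 76 with vehicle and 14, 34, 19, 28 and 20 after CDDO-Me and the Nrf2-knockout mice 39, 238, 115, 62 and 20 with vehicle and 14, 50, 50, 17 and 40 after CDDO-Me. The C151S groups did not overlap, at 52 or more and 34 or fewer. Its change was -1.49 ± 0.21 in C151S mice (adjusted p = 0.0399) and -1.26 ± 0.37 in wild-type mice (adjusted p = 0.0783). Over the mean of the genotypes Knstrn changed by -1.38 ± 0.25 (adjusted p = 0.00134). Whether the changes of members go with their promoter motifs was not tested.

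The kinetochore proteins Cenpe and Cenpf changed over the mean of the genotypes by -2.01 ± 0.33 and -2.04 ± 0.27 on the log2 scale (adjusted p = 0.000591 and 6.68e-05). The chromosomal passenger proteins survivin (Birc5) and borealin (Cdca8) changed less, by -0.71 ± 0.21 and -0.77 ± 0.17 (adjusted p = 0.0399 and 0.00845). Neither passed the filtered test in a single genotype. With 1 mouse left out, the call of Birc5 over the mean of the genotypes held in 10 of the 30 fits. Its adjusted p was at most 0.081 over all alternatives.

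**Figure D4:**
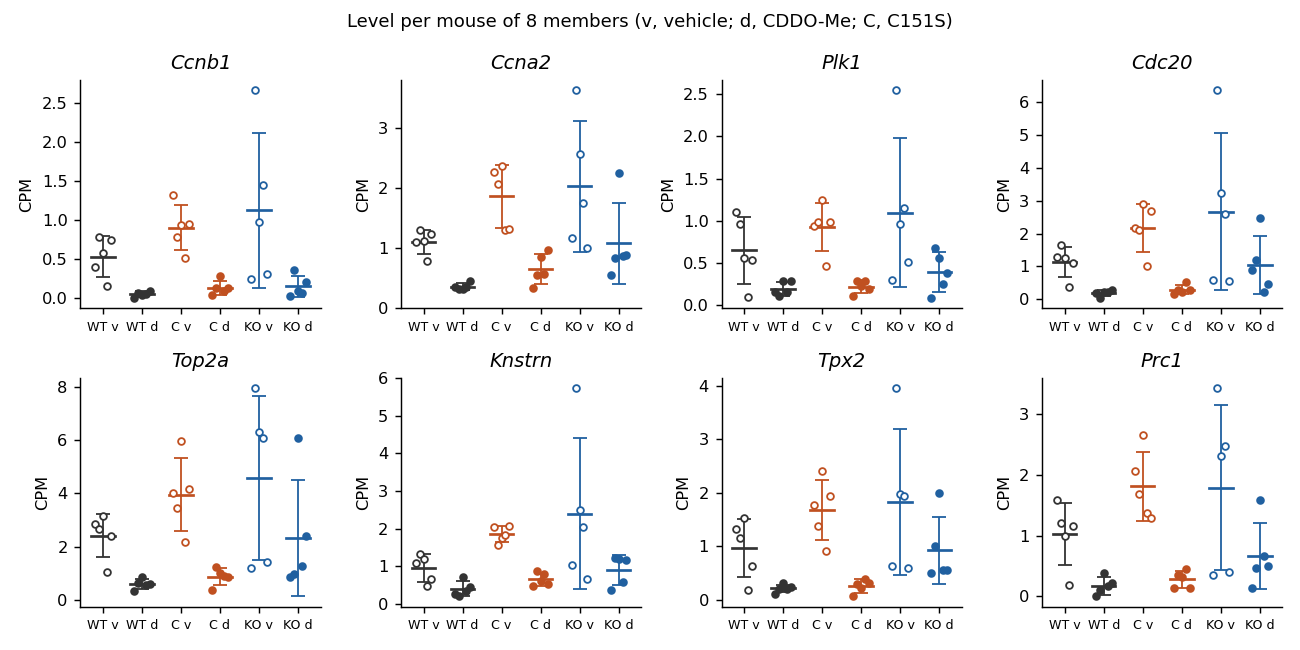
Level (vertical axis, CPM) of Ccnb1, Ccna2, Plk1, Cdc20, Top2a, Knstrn, Tpx2 and Prc1 in each mouse by group. Open points are vehicle-treated and filled points CDDO-Me-treated mice (v and d, with C for C151S and KO for Nrf2-knockout), and lines with bars are means ± SD of 5. Treated wild-type and C151S mice sit near the bottom of each panel, and 1 vehicle-treated Nrf2-knockout mouse, mouse 2, is at the top of each.

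The 7 proteins and motors of the spindle were all lower over the mean of the genotypes, with a median log2 fold change of -1.16. Tpx2 (ENSMUSG00000027469.16, chr2:152847964-152895321) encodes a spindle assembly factor that activates Aurora A. Tpx2 counts in wild-type mice were 30, 34, 58, 6 and 18 with vehicle and 3, 6, 9, 7 and 8 after CDDO-Me. In C151S mice they were 55, 46, 94, 28 and 71 with vehicle and 2, 12, 7, 14 and 12 after CDDO-Me, and in Nrf2-knockout mice 24, 164, 91, 59 and 18 with vehicle and 19, 42, 83, 16 and 19 after CDDO-Me. Vehicle-treated wild-type mouse 4, with 6 counts, lay among the treated mice, and the C151S groups were apart by 28 or more against 14 or fewer. Tpx2 changed by -2.65 ± 0.38 in C151S mice (adjusted p = 0.04) and by -2.12 ± 0.44 in wild-type mice with no filter (adjusted p = 0.00714).

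Ckap2 (ENSMUSG00000037725.8, chr8:22168160-22185819), a protein of spindle microtubules, had counts of 31, 25, 27, 8 and 14 with vehicle and 3, 0, 4, 2 and 10 after CDDO-Me in wild-type mice. C151S mice had 62, 48, 75, 24 and 49 with vehicle and 4, 11, 8, 12 and 2 after CDDO-Me and Nrf2-knockout mice had 21, 145, 80, 34 and 14 with vehicle and 13, 20, 66, 10 and 16 after CDDO-Me. The C151S groups were again apart, and treated Nrf2-knockout mouse 3 stood at 66 counts above the 20 or fewer of the other 4. Ckap2 changed by -2.80 ± 0.41 in C151S mice (adjusted p = 0.04).

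Of the other spindle genes, Kif11, the motor that pushes spindle poles apart, changed by -0.99 ± 0.19 in wild-type mice (adjusted p = 0.0107). There Spag5 changed by -1.08 ± 0.22 and Nusap1, a microtubule-bundling protein, by -1.74 ± 0.35 (adjusted p = 0.0164 and 0.0141). Kif4, a chromosome-bound kinesin, and Aspm, a spindle pole protein, passed over the mean of the genotypes (-1.16 ± 0.29 and -0.85 ± 0.20, adjusted p = 0.0149 and 0.0124). Aspm was the member nearest to 0 in wild-type mice, at -0.25 ± 0.31.

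Of the 5 genes of the spindle midzone and cytokinesis, 4 were lower over the mean of the genotypes, with a median of -1.14 for the 5. Prc1 (ENSMUSG00000038943.16, chr7:80294450-80316259) encodes the protein that bundles antiparallel microtubules in the midzone. Prc1 counts were 36, 35, 38, 6 and 33 with vehicle and 0, 3, 11, 6 and 7 after CDDO-Me in wild-type mice. They were 64, 56, 104, 42 and 47 with vehicle and 4, 14, 10, 16 and 5 after CDDO-Me in C151S mice and 13, 142, 106, 75 and 12 with vehicle and 5, 19, 66, 19 and 17 after CDDO-Me in Nrf2-knockout mice. Without vehicle mouse 4, which had 6 counts, the wild-type groups were apart by 33 or more against 11 or fewer, and the C151S groups were apart in full. Prc1 changed by -2.49 ± 0.58 in wild-type mice (adjusted p = 0.0315) and by -2.68 ± 0.36 in C151S mice (adjusted p = 0.038). The midzone kinesins Kif20a and Kif23 changed by -1.28 ± 0.24 and -1.49 ± 0.31 in wild-type mice (adjusted p = 0.00883 and 0.0166), and Anln, the anillin of the contractile ring, by -1.02 ± 0.21 over the mean of the genotypes (adjusted p = 0.00363).

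Whether the fall differed between genotypes was tested as the difference of 2 responses in the fit of all 30 libraries. By edgeR 0 of the 36 members passed in each of the 3 pairs of genotypes, where 0.48%, 0.266% and 0.0133% of all genes did, and DESeq2 called 0 as well. At an unadjusted p under 0.05 (8.31%, 6.28% and 4.92% of all genes) there were 0 members between wild-type and C151S mice, 2 between wild-type and Nrf2-knockout mice (Nuf2 and Aspm) and 5 between C151S and Nrf2-knockout mice (Spag5, Tpx2, Melk, Bub1 and Pbk). These estimates were wide, and a p above the threshold does not show that the responses were alike. For Cdc20, the wild-type response minus the C151S response was 0.30 ± 0.96 SE, the wild-type minus the Nrf2-knockout response -1.25 ± 0.86, and the C151S minus the Nrf2-knockout response -1.55 ± 0.81 on the log2 scale. The median over the members was 0.30 for wild-type minus C151S, -0.39 for wild-type minus Nrf2-knockout and -0.60 for C151S minus Nrf2-knockout.

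With vehicle alone the mean summed level of the members was 160.4% of the wild-type mean in C151S mice and 179.2% in Nrf2-knockout mice, and the mice of both mutants (37.4 to 73.6 and 28.2 to 120.1 CPM) overlapped the wild-type mice (18.3 to 47.4). In C151S mice 4 members were called higher (Anln, Ccnb2, Knstrn and Birc5, log2 differences of 1.05, 1.09, 0.97 and 0.92, adjusted p from 0.0196 to 0.0439), of 34 tested, compared with 2.59% of all genes called higher. In Nrf2-knockout mice 1 member was called higher (Bub1b, 0.98 ± 0.28, adjusted p = 0.0367), of 33 tested, compared with 6.29% of all genes, so that the share of members called was below that of all genes. At an unadjusted p under 0.05 there were 19 and 13 members, each of them higher, with 26.5% and 33.5% of all genes in either direction. With upper-quartile scaling 3.3% of all genes were called higher and 1.81% lower in C151S mice, against 2.59% and 2.25% here, and 9.32% and 3.04% in Nrf2-knockout mice, against 6.29% and 4.13%. The C151S count was 0 without wild-type vehicle mouse 4 or 5 or C151S vehicle mouse 2, 1 or 2 without wild-type mouse 1 or 3 or C151S mouse 1, 3 or 5, and 12 without C151S mouse 4. The Nrf2-knockout count was 0 without Nrf2-knockout vehicle mouse 2 or 3 or any 1 of wild-type mice 2 to 5, and 10 and 8 without Nrf2-knockout mice 1 and 5. Between the vehicle groups of C151S and Nrf2-knockout mice 0 of 36 members were called, compared with 0.349% of all genes, 0 had an unadjusted p under 0.05 (11.3% of all genes), and DESeq2 called 0. These vehicle groups are the same mice that serve as controls for the treatment, so that the basal and the treatment differences share their error.

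Markers of other cells differed between the vehicle groups as well. In Nrf2-knockout mice 4 of 7 endothelial, 3 of 6 stellate and both tested neutrophil markers were called higher than in wild-type mice. So were 1 of 7 T and NK cell and 1 of 6 B cell markers (6.29% of all genes called higher). Of the 6 B cell markers 4 were below 0, with a median of -0.08. Called lower were 2 of 4 erythroid and 1 of 8 hepatocyte markers (4.13% of all genes), and 0 of 9 Kupffer cell and 0 of 5 cholangiocyte markers were called. In C151S mice 1 of 6 B cell markers was called higher and 1 of 5 cholangiocyte markers lower (2.59% and 2.25% of all genes). Kupffer cell markers had 0 of 9 called in C151S mice. There 5 of 7 endothelial and 4 of 7 T and NK cell markers were higher at an unadjusted p under 0.05 (26.5% of all genes in either direction). The summed endothelial marker level was 184 to 223 CPM in wild-type, 201 to 315 in C151S and 226 to 368 in Nrf2-knockout mice (ranges of 5 vehicle-treated mice). For stellate markers it was 167 to 233, 173 to 319 and 158 to 434 CPM, and for T and NK cell markers 2.57 to 5.64, 4.27 to 8.05 and 4.73 to 11.6 CPM, in the same order. The neutrophil markers summed to 0.879 to 1.58, 0.358 to 3.05 and 1.10 to 8.48 CPM. Their part in the vehicle differences of the members was not tested.

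After CDDO-Me, Nrf2-knockout mice were compared with wild-type mice. With no filter, so that all 36 members entered, 10 were called higher and 0 lower, with 2.59% of 28241 genes called higher. With the filter, which a member can pass through the knockout group alone, 21 were tested. Of these, 7 were called higher in Nrf2-knockout mice, compared with 4.59% of all genes called higher. They were Tpx2, Ckap2, Top2a, Mki67, Ccna2, Spag5 and Nusap1, with log2 differences from 1.38 ± 0.34 (Spag5) to 2.37 ± 0.66 (Ckap2) and adjusted p from 0.0108 to 0.0361. Leaving out 1 mouse moved this count from 2 (without wild-type mouse 1 or 4) to 11 (without Nrf2-knockout mouse 1), with 3 without wild-type mouse 2 or Nrf2-knockout mouse 3, and 4 without wild-type mouse 3. The treated mean of the summed level in Nrf2-knockout mice was 219.4% of that in wild-type mice, and 170.1% without Nrf2-knockout mouse 3. In the same comparison 7 of 31 genes of G1/S and replication were called higher and 1 lower, with Mcm5 at 2.43 ± 0.57 and the cyclin gene Ccnd1 at 2.39 ± 0.46 (adjusted p = 0.0167 and 0.00602; both named after their values were seen). Of the cell markers 1 of 7 endothelial, 1 of 7 T and NK cell and 1 of 6 B cell markers were called higher. Of 9 Kupffer cell markers 1 was called lower (4.85% of all genes). The log2 differences of all 7 endothelial, 6 stellate and 7 T and NK cell markers tested were above 0. Of the 6 B cell markers 5 were below 0, with a median of -0.622. The summed levels in treated wild-type and Nrf2-knockout mice were 175 to 217 and 169 to 351 CPM for endothelial, 160.0 to 212 and 127 to 447 for stellate and 2.54 to 5.04 and 3.34 to 7.43 for T and NK cell markers, and their part in the difference of the members was not tested. Between treated C151S and wild-type mice edgeR and DESeq2 called 0 members, of 18 that passed edgeR's filter, compared with 5% of all genes. There 3 had an unadjusted p under 0.05 (24.6% of all genes), and without C151S CDDO-Me mouse 1 the count was 2. Between treated C151S and Nrf2-knockout mice edgeR called 0 of 28, compared with 0.162% of all genes. At an unadjusted p under 0.05, 9 were lower (4% of all genes), and DESeq2 called 2 lower (0.315% of all genes).

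**Figure D5:**
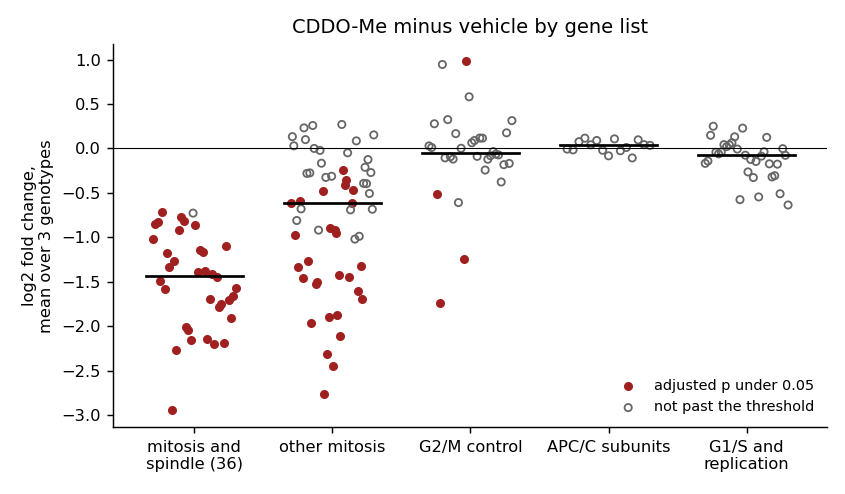
Log2 fold change of CDDO-Me against vehicle over the mean of the 3 genotypes (vertical axis) for each tested gene (points) of 5 lists, with filled points at an adjusted p under 0.05 and lines at the list medians. The members (35 of 36 past the test) and other mitosis genes (29 of 58) lie mostly below 0, and the APC/C subunits (0 of 15) and genes of G1/S and replication (0 of 32) lie around it.

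Other genes of mitosis moved in the same comparison. Of 61 further genes of condensation, kinetochores and spindle, 58 could be tested over the mean of the genotypes. There 29 were lower and 0 higher (2.76% and 3.63% of all genes), with a median of -0.61. Within genotypes 5 of 37 were called lower in wild-type, 0 of 44 in C151S and 0 of 54 in Nrf2-knockout mice (1.1%, 0.0779% and 0% of all genes). At an unadjusted p under 0.05, 26 and 12 were lower in C151S and Nrf2-knockout mice (6.53% and 4.03% of all genes). DESeq2 called 9, 20 and 0 lower (1.58%, 0.532% and 0.188% of all genes). Hmmr, a spindle protein, changed by -2.64 ± 0.50 in wild-type mice (adjusted p = 0.00972) and was -3.82 ± 0.63 in C151S mice (adjusted p = 0.0544). Racgap1, the partner of Kif23 at the midzone, and Smc2, a condensin subunit, passed in wild-type mice at -2.11 ± 0.40 and -0.56 ± 0.12 (adjusted p = 0.0104 and 0.0177). Kif2c, a microtubule-depolymerizing kinesin, and Shcbp1, a midbody protein, were at -2.38 ± 0.38 and -2.20 ± 0.36 in C151S mice (adjusted p = 0.0518 and 0.0531).

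Genes of the preceding steps of the cycle were counted in the same way. Of 32 genes of G1/S and DNA replication, 0 were called in either direction by edgeR or DESeq2 over the mean of the genotypes. At an unadjusted p under 0.05 there were 4 (23.3% of all genes), each of them lower, and the median was -0.08. In wild-type mice 3 were called lower, the helicase subunit Mcm5 (-1.16 ± 0.22, adjusted p = 0.0114), the ribonucleotide reductase subunit Rrm2 (-0.84 ± 0.19, adjusted p = 0.0281) and Mcm3, and Rrm1 had an adjusted p of 0.0249 with a log2 fold change of -0.37, under the size asked for. Of the 31 tested in wild-type mice 13 had an unadjusted p under 0.05 (17% of all genes), 10 of them lower, and 5 had treated mice all below the vehicle-treated ones (2.12% of all genes). Their median was -0.25, and DESeq2 called 4 lower. In C151S and Nrf2-knockout mice 0 of 31 were called in each, with 8 and 0 at an unadjusted p under 0.05 (13.7% and 7.85% of all genes), and DESeq2 called 1 and 0. Whether these genes changed less than the members was not tested. In C151S mice the lowest p values were those of Gins2, Rfc4 and Uhrf1, at -1.25, -0.58 and -1.33 with adjusted p of 0.238 to 0.351.

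Among 32 regulators of G2 and M, 3 were lower and 1 higher over the mean of the genotypes (2.76% and 3.63% of all genes). Their median was -0.049. Within genotypes edgeR called 0. At an unadjusted p under 0.05 there were 7, 7 and 4 in wild-type, C151S and knockout mice (17%, 13.7% and 7.85% of all genes). Of these 5, 5 and 1 were lower. DESeq2 called 3 (2 lower and 1 higher), 0 and 0, with 1.58% and 1.93% of all genes called lower and higher in wild-type mice. Foxm1, the forkhead factor that drives transcription in G2 and M, changed by -1.25 ± 0.28 on the log2 scale (adjusted p = 0.00754), with mean levels of 0.534 and 0.181 CPM in wild-type, 1.28 and 0.544 in C151S, and 1.71 and 0.864 in Nrf2-knockout mice with vehicle and CDDO-Me. The others, named after their values were seen, were the Cdk1-activating phosphatases Cdc25b (-0.51) and Cdc25c (-1.74), both lower, and the stress-response gene Gadd45a (0.98), higher. Mybl2, which acts with MuvB in S phase and G2, was at -0.24 ± 0.23 (adjusted p = 0.545), and Wee1, the kinase that restrains Cdk1, at 0.31 ± 0.35 (adjusted p = 0.625). The Cdk inhibitor Cdkn1a was at 0.94 ± 0.48 (adjusted p = 0.23), with -0.72 in wild-type, 1.54 in C151S and 1.96 in Nrf2-knockout mice, none past the threshold. E2f2 and E2f4, named by lowest p, were at -0.88 in wild-type and 0.36 in C151S mice (adjusted p = 0.0667 and 0.347).

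Markers of other cells of the liver were read beside these genes. Over the mean of the genotypes edgeR called 0 of 9 Kupffer cell, 0 of 7 endothelial, 0 of 6 stellate, 0 of 5 cholangiocyte and 0 of 3 tested neutrophil markers. At an unadjusted p under 0.05 there were 0, 1, 1, 0 and 1 of these (23.3% of all genes). DESeq2 called 1 endothelial marker and none of the others. In wild-type mice 1 neutrophil marker, the alarmin gene S100a8, was higher (1.69 ± 0.38, adjusted p = 0.0235, with 1.66% of all genes called higher). There 1 B cell marker, Ighm (-1.07 ± 0.24, adjusted p = 0.0268), and 1 erythroid marker, Alas2 (-0.60 ± 0.12, adjusted p = 0.0113), were lower, the direction of the members, and DESeq2 called 1 T and NK cell marker lower. The neutrophil gene Ly6g had 3 counts or fewer in every library. Over the mean of the genotypes 1 of 6 B cell markers was lower (2.76% of all genes), the immunoglobulin heavy chain Ighm (-0.80 ± 0.18, adjusted p = 0.00731). All 6 had a log2 fold change below 0, with a median of -0.507, and 4 had an unadjusted p under 0.05 (23.3% of all genes). At that threshold there were also 2 of 7 T and NK cell, 2 of 5 erythroid and 5 of 8 hepatocyte markers. All of these were lower but 1 hepatocyte marker. The summed B cell marker level was 11.5 to 26.0 with vehicle and 7.90 to 13.2 after CDDO-Me in wild-type mice, 8.51 to 16.7 and 6.03 to 11.8 for C151S, and 10 to 24.1 against 5.66 to 14.5 CPM in Nrf2-knockout mice (ranges of 5 mice). Of 7 tested T and NK cell markers 1 was lower, Cd4 (-0.75 ± 0.20, adjusted p = 0.0254), and the summed level was 2.57 to 5.64 and 2.54 to 5.04, 4.27 to 8.05 and 3.70 to 5.46, and 4.73 to 11.6 and 3.34 to 7.43 CPM in the same order. Of 5 tested erythroid markers 1 was lower, the heme synthesis enzyme Alas2 (-0.56 ± 0.12, adjusted p = 0.00577), the summed level being 159 to 206 and 117 to 194, 144 to 227 and 69.7 to 162, and 96.5 to 157 and 75.5 to 185 CPM. The red cell membrane genes Rhag and Epb42 had 3 counts or fewer in every library. Of 8 hepatocyte markers the plasma carrier Ttr (-0.49 ± 0.09) and the urea cycle enzyme Cps1 (-0.35 ± 0.10) were lower over the mean of the genotypes, and the fatty acid-binding protein gene Fabp1 in wild-type mice (-0.84 ± 0.14, adjusted p = 0.00559). No marker was called in C151S or Nrf2-knockout mice by edgeR. At an unadjusted p under 0.05 there were 2 hepatocyte, 1 T and NK cell, 4 B cell and 1 erythroid marker in C151S mice (13.7% of all genes). In Nrf2-knockout mice there were 1 hepatocyte, 1 endothelial and 2 B cell markers (7.85% of all genes). DESeq2 called 0 markers in C151S mice and 1 hepatocyte marker in Nrf2-knockout mice. The part of these cells in the levels of the mitosis genes was not tested.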

How the data were processed

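Liver mRNA was read in 30 mice (TruSeq Stranded mRNA, paired-end, 1 library per mouse). Per the labels and methods, the authors assessed read quality with fastp without removing reads or bases, aligned the reads to mm10 with STAR 2.7.7 and GENCODE M23, and deposited raw second-strand counts per gene, which were used here as deposited. Reads shared between near-identical genes are not resolved in such counts. The authors' fits (edgeR 3.36.0) held the date of sample isolation, which the labels do not give and which was not used here. Two-group fits used edgeR 4.0.16 in R 4.3.3 (quasi-likelihood test, trimmed mean of M values, default filter on low counts, 10 libraries), called at an adjusted p under 0.05 and a log2 fold change of 0.5 or more in size. The mean response and the differences between responses came from 1 fit of all 30 libraries, called at an adjusted p under 0.05. CPM are counts relative to the library size so scaled, and 3 counts were taken as the floor of detection. Depth was 23667068 to 42073169 counts, so that most members rest on under 100 counts per mouse and intervals of counting alone are wide.

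The members and lists were chosen with earlier results of these data known. Counts in every mouse (CPM for Ccna2 in Nrf2-knockout mice) are given for members called in a treatment comparison, up to 12 by lowest p, and for Cdk1, Ccnb1, Plk1, Mki67 and Top2a. From other lists the up to 3 genes of lowest p in wild-type and C151S mice were named, plus Foxm1, Mybl2, Cdkn1a and Wee1, and from marker lists the genes that were called. Alternatives were another quasi-likelihood fit of edgeR, upper-quartile scaling, other filters, no size threshold, a fit of all libraries, a surrogate variable (sva 3.50.0), the Arntl group as covariate, a replicate block, DESeq2 1.42.0 and leaving out each mouse. The test was tried on simulated counts with 100 genes lowered 2-fold and 100 lowered 4-fold. In the C151S comparison 62% and 86% of them were found, with 14 false calls. Over the mean of the genotypes 89% and 100% were found, with 6 false calls. The lowered genes were drawn above a level that some members, such as Melk, did not reach.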

Additional observations from a re-analysis of the deposited data

Results flagged for a closer look

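Among 90 groups of 5 mice examined (the summed level and 14 members in 6 groups each), 9 held a mouse whose gap to its nearest neighbour was large for the range of its group. About 1 in 20, or 4.5, would be met by chance if the groups were independent and the values normal. The members vary together in the same mice and the sum holds them, so 9 against 4.5 is no test. CDDO-Me-treated Nrf2-knockout mouse 3 was such a mouse for the summed level (60.2 CPM against 18 to 30.1 in the other 4, a gap of 0.714 of the range), Ccna2 (2.25 CPM against 0.558 to 0.885, gap 0.807), Pbk (1.08 against 0.0885 to 0.218, gap 0.869), Ckap2 (1.58 against 0.345 to 0.484, gap 0.888) and Cdk1 (4.72 against 1.33 to 2.06, gap 0.786). In vehicle-treated Nrf2-knockout mice, mouse 2 stood apart for Ccnb2 (3.97 CPM against 0.588 to 1.56, gap 0.711). In treated wild-type mice, mouse 5 was high for Ccna2 (0.461 against 0.317 to 0.352, gap 0.758), mouse 4 was high for Nuf2 (0.147 against 0 to 0.0391, gap 0.733) and mouse 1 was low for Mki67 (0.391 against 0.879 to 0.987, gap 0.819).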

How the results depend on the processing

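No log2 fold change of the 36 members over the mean of the genotypes, nor of the members followed within genotypes (8 in wild-type, 14 each in C151S and Nrf2-knockout mice), changed sign under the alternatives run. The other named values (differences between responses and between genotypes, other lists and markers) were not followed one by one. The count of members called in wild-type mice (10) was 18 with no filter on low counts, 3 (of 9 tested) with at least 10 counts in every library, 4 in the fit of all 30 libraries, 5 with the replicate block and 22 by DESeq2, and 8 to 22 with 1 mouse left out. In C151S mice (11) it was 6 with upper-quartile scaling, 1 (of 15 tested) with at least 10 counts, 7 in the fit of all libraries, 0 with the block, 27 by DESeq2, 0 with a surrogate variable and 2 with the Arntl group, and 0 to 17 with 1 mouse left out. In Nrf2-knockout mice (0) DESeq2 gave 3, and leaving out any 1 mouse left the count at 0. With vehicle, C151S against wild-type (4) gave 0 in the fit of all libraries, 7 with the block and 11 by DESeq2, and 0 to 12 without 1 mouse. Nrf2-knockout against wild-type (1) gave 2 with upper-quartile scaling, 2 with at least 10 counts, 5 in the fit of all libraries, 0 with the block and 6 by DESeq2, and 0 to 10 without 1 mouse. After CDDO-Me, C151S against wild-type (0) gave 0 to 2 without 1 mouse. Nrf2-knockout against wild-type (7) gave 10 with no filter and 1 (of 9 tested) with at least 10 counts. That comparison gave 11 in the fit of all libraries, 15 by DESeq2 and 2 to 11 without 1 mouse. C151S against Nrf2-knockout (0) gave 1 lower in the fit of all libraries (0.32% of all genes) and 2 lower by DESeq2 (0.315%). Over the alternatives other than leaving out a mouse, 0.286% to 1.58% of all genes were called lower by treatment in wild-type mice, 0% to 0.532% in C151S and 0% to 0.188% in Nrf2-knockout mice. With vehicle, 1.11% to 4.14% were called higher in C151S and 3.16% to 9.32% in Nrf2-knockout mice than in wild-type mice (4.14% and 7.39% by DESeq2), and after CDDO-Me 2.59% to 5.78% in Nrf2-knockout mice (5.48% in the fit of all libraries, 5.68% by DESeq2). The mean response (35) was 8 of 9 tested with at least 10 counts, where 3.05% of all genes were lower. It was 32 (without vehicle-treated Nrf2-knockout mouse 2) to 36 without 1 mouse. Fewer genes or libraries were tested where a filter or a mouse was the change; the cause of the other differences was not tested. For single members, 31 of the values over the mean of the genotypes lost their call and 8 gained one, against 1338 that kept their side of the threshold, and in C151S mice 131 lost and 5 gained against 136. Mice with the same number did not deviate together in every pair of any comparison (correlations of -0.448 to 0.5), so they were not treated as pairs in the main fits. This check cannot exclude that some of the mice were paired or shared a batch. The block left the mean response at 34, where 3.14% of all genes were lower. The summed levels moved by less than 1 SD under library-size and upper-quartile scaling. With counts this low, a member at a few reads per mouse cannot show a change of moderate size.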
